A study of Mus musculus with 59 samples.

Results

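The 10 genes described here, Pdk4, Ucp3, Acot1, Acot2, Angptl4, Cpt1b, Plin2, Plin5, Fabp3 and Cd36, act in fatty acid use by muscle and are known targets of the peroxisome proliferator-activated receptors (PPARs). They were taken by gene symbol and make up 10 of the 47643 rows of the expression table. PPARs are nuclear receptors that bind fatty acids and their derivatives, pair with retinoid X receptors (RXRs) and drive genes for fatty acid uptake, storage and oxidation. In skeletal muscle these genes are known to rise in fasting and exercise, when fatty acids replace glucose as fuel, and oxidative muscles use this program more than glycolytic ones.

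RNA was sequenced from 59 muscle samples of female NCI Ath/nude mice, an athymic strain, at 4 months of age, and every mouse carried a melanoma. The melanoma was either cachectic, meaning that it caused wasting, or non-cachectic, and per the study's methods both were human patient-derived xenografts grown under the skin. Each of these states was a single xenograft, so a difference between them is a difference between 2 tumors, and no tumor-free group was analysed here. The diaphragm groups were non-cachectic mock (n = 9), non-cachectic rFibcd1 (n = 10), cachectic mock (n = 10) and cachectic rFibcd1 (n = 10), where rFibcd1 is the recombinant form of Fibcd1, a secreted muscle factor, injected into the abdomen in the last week, and mock is its carrier. Tibialis anterior, a fast glycolytic limb muscle, and soleus, a slow oxidative one, each gave 5 cachectic and 5 non-cachectic samples, whose labels name no injection. The labels call the samples biological replicates, but no label ties a table column to a mouse, so p-values measure the spread between these libraries.

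Values are TPM, the length-scaled abundance of a transcript as a share of all transcripts of its library, so levels can be set beside each other between genes. Read depth is unknown, since each library sums to 1000000 TPM, and the libraries listed between 16436 and 19456 genes above 0. The summed TPM of 6 myofiber markers was 33407 to 44155 in non-cachectic mock diaphragm, 51997 to 65419 in non-cachectic tibialis anterior and 44764 to 54422 in non-cachectic soleus, and the slow myosin Myh7 averaged under 1 TPM in non-cachectic tibialis anterior, as known for that muscle. Transcripts of the mitochondrial genome took 47.5% ± 2.97 of all TPM in non-cachectic mock diaphragm and 38.1% ± 3.18 in cachectic mock diaphragm (SD), 48.5% ± 1.80 and 38.8% ± 8.12 in tibialis anterior, and 41.1% ± 2.00 and 30.5% ± 3.92 in soleus. The median gene was higher in the cachectic group, by 0.20 on the log2 scale in diaphragm, 0.41 in tibialis anterior and 0.09 in soleus. The libraries also fell into 2 sets by the pseudogene Pcna-ps2, which was at most 0.428 TPM in 23 libraries and at least 5.60 TPM in 36. All 10 cachectic limb libraries were in the high set and all 10 non-cachectic ones in the low set, so in limb muscle this library state and the melanoma cannot be told apart. The diaphragm groups held both sets, with 3 of 9 non-cachectic mock and 9 of 10 cachectic mock libraries in the high one.

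Acot1 and Acot2 lie close together on chromosome 12 (GRCm38, chr12:84009490-84018371 and chr12:83987861-83993873, both on the plus strand) and are near copies. Their coding sequences, 1257 and 1359 bases long, were identical at 95.6% of 1236 aligned bases, with an unbroken identical run of 273 bases, and 31.0% of all 100-base windows of Acot1 also occurred in Acot2. How the counting treated reads that match both genes was not given in the sources used here, so the split of reads between them is uncertain. The 60 bases printed here, from the coding sequences as annotated by GENCODE, are the stretch of that length with the most differences, shown because only such stretches tell the copies apart, and capitals mark the 13 differing bases (Acot1 coding bases 823 to 882, Acot2 bases 946 to 1005).
Acot1: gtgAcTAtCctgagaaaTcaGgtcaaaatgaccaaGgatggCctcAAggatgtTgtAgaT
Acot2: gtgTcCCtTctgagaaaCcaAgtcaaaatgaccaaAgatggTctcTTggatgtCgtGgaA

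The promoters of Pdk4, Ucp3 and Acot2 are shown because these genes followed each other most closely among the libraries, as described further on. Each line gives the 250 bases before the RefSeq start site (GRCm38.p6), written 5′ to 3′ along the gene, at chr6:5496279-5496528 on the minus strand for Pdk4, chr7:100472741-100472990 on the plus strand for Ucp3 and chr12:83987611-83987860 on the plus strand for Acot2. Capitals mark 13 bases with the fewest mismatches to the PPAR response element AGGTCANAGGTCA, a pair of half-sites with a spacer of any base. Ucp3 had 1 such stretch, while in Pdk4 the marked one is the first of 3 with 4 mismatches each. Acot2 had another with 3 mismatches at 18 bases after its start, outside the line printed.
Pdk4: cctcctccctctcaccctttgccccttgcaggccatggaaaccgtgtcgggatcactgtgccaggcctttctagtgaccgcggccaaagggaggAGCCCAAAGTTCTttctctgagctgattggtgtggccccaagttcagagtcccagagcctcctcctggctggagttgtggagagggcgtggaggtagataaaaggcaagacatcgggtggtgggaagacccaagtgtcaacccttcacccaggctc
Ucp3: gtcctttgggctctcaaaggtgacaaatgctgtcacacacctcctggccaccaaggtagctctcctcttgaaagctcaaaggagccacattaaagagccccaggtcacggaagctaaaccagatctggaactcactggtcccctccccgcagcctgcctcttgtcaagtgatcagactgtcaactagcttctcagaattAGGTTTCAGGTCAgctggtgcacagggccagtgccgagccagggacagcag
Acot2: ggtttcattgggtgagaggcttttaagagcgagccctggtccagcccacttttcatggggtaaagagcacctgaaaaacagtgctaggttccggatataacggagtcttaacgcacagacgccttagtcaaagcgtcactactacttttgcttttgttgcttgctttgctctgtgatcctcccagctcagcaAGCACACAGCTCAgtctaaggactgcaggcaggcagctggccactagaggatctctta

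On both strands of the promoters of the 8 matched genes, which had 9 promoters, Ucp3 came to within 2 mismatches of this element at 51 bases before its start. Plin2 and Cd36 did so too, on the strand opposite to the gene, at 225 and 63 bases before theirs. Acot2 was 3 mismatches away, as were both promoters of Plin5, and Pdk4, Acot1 and Fabp3 were 4 away. The windows searched were 300 bases long, from 250 bases before the start site to 50 after it. Among all 32544 promoter windows of that length, 3.87% held a match with at most 2 mismatches and 24.7% one with at most 3, and the half-site AGGTCA alone was in 16.2%. Of the matched genes, Ucp3, Plin2, Plin5 and Cd36 held this half-site and the others did not. Such a match is a description of the letters, and PPAR elements outside these windows were not searched. The promoters of Angptl4 and Cpt1b were not used here.

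The melanoma comparison asked how the genes differed between mice with the cachectic and the non-cachectic tumor. It was made in mock diaphragm, tibialis anterior and soleus. In soleus 6 of the 10 genes fell (Acot1, Acot2, Ucp3, Cpt1b, Plin5 and Fabp3) and none rose, beside 25.1% of all 11957 genes tested that were called and 7.54% that were lower. In tibialis anterior 9 of the 10 genes passed the filter of 1 TPM in at least 5 libraries and Angptl4 did not. There Acot1, Plin2 and Cd36 rose and Fabp3 fell, beside 60.2% of 11105 genes called, 56.4% higher and 3.78% lower. In mock diaphragm Cd36 alone rose and none of the others passed the test, beside 33.5% of 13426 genes called and 30.9% higher. Dunn's test on ranks called 4 genes in soleus, beside 20% of all genes, without Ucp3 and Cpt1b (Dunn adjusted p = 0.090 for both). It called 3 in tibialis anterior, beside 66.1%, without Cd36 (Dunn adjusted p = 0.10), and Cd36 in mock diaphragm, beside 40.5%. Without the filter on low values 3 soleus calls remained, those of Acot1, Acot2 and Plin5, beside 14.4% of all genes. Calls are an adjusted p under 0.05 in limma on log2(TPM + 1), with Benjamini-Hochberg adjustment over all genes of the fit. The median log2 difference of the genes was -0.70 in soleus, 0.16 in diaphragm and, over the 9 tested, 0.04 in tibialis anterior, while that of all genes was 0.09, 0.20 and 0.41. In diaphragm and tibialis anterior the share of calls among these genes was below that among all genes, and in soleus it was above it. Scaled to the median ratio of genes, which brings the median gene to about 0, 7 genes were lower and none higher in soleus, beside 12.8% of all genes lower and 15.2% higher. So scaled, 4 were lower and 1 higher in tibialis anterior, beside 21.9% and 18.4%, and 1 was lower and none higher in mock diaphragm, beside 8.41% and 7.39%.

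Fiber markers also differed between the tumors. In soleus the summed TPM of the 6 myofiber markers was 44764 to 54422 in the non-cachectic and 57238 to 76604 in the cachectic libraries, without overlap. Acta1 (0.44, limma adjusted p = 0.037) and the slow myosin Myh7 (0.41, limma adjusted p = 0.0498) rose, and neither was called under median-ratio scaling. The fast myosin Myh4 was at 7.34, 7.64, 12.1, 24.9 and 21.97 TPM in the non-cachectic and at 49.2, 4989, 69.8, 56.7 and 31.2 TPM in the cachectic soleus libraries. These groups did not overlap, 1 library was far above the others, and Myh4 was not called (3.17, limma adjusted p = 0.064). Without that library 5 of the 10 genes were called in soleus. In tibialis anterior the sum was 51997 to 65419 against 30897 to 56366 TPM in the cachectic libraries, with 3 markers lower and Myh7 higher. In mock diaphragm it was 33407 to 44155 against 27787 to 65316 TPM, with 2 higher. Their part in these results was not tested.

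**Figure D1:**
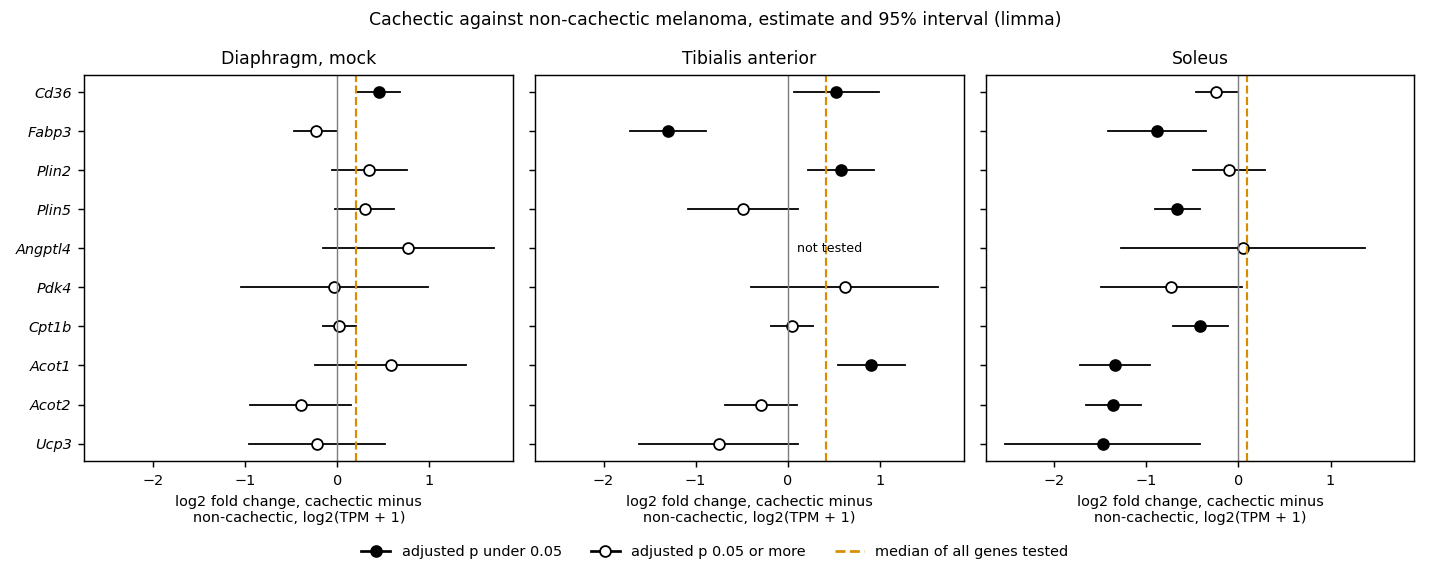
Log2 fold change of each gene, cachectic minus non-cachectic, on log2(TPM + 1) in mock diaphragm, tibialis anterior and soleus, with bars for the 95% interval of the limma fit, filled points for an adjusted p under 0.05 and a dashed line at the median of all genes tested. Soleus has 6 filled points, all left of 0, while tibialis anterior has Acot1, Plin2 and Cd36 to the right and Fabp3 at -1.30 to the left, and diaphragm has Cd36 alone at 0.45.

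Cd36 and Fabp3 bring fatty acids into the fiber. Cd36 (chr5:17781690-17888801, minus strand) is a membrane transporter that is also made by endothelial cells, adipocytes and macrophages. In mock diaphragm its level had a lowest value of 409.9, a median of 474 and a highest of 516 TPM in the non-cachectic group and a lowest value of 494, a median of 666 and a highest of 791 TPM in the cachectic one. The groups overlapped only at their edges and the cachectic libraries were mostly the higher ones. Cd36 rose in the cachectic diaphragm, where it averaged 654 ± 91.6 TPM (SD, n = 10) against 475 ± 33.0 (SD, n = 9). Its log2 fold change was 0.45, with an SE of 0.12 and a 95% interval of 0.22 to 0.69 (limma adjusted p = 0.0034). Scaled to the median ratio of genes instead of to the TPM total, the same difference was 0.22 (limma adjusted p = 0.26), and among high-state libraries only it was 0.47 (limma adjusted p = 0.084), both no longer called. In the latter fit none of the 10 genes was called, beside 5.69% of all genes.

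In tibialis anterior Cd36 was at 149, 242, 179, 152 and 208 TPM in the non-cachectic libraries and at 191, 309, 431, 226 and 224 TPM in the cachectic ones. The groups overlapped, with 3 of the cachectic libraries inside the non-cachectic range. The rise there (log2 fold change 0.53, SE 0.21, limma adjusted p = 0.049) sat at the threshold and close to the median of all genes, and it was lost when any of 8 of the 10 libraries was left out, all but cachectic library 1 and non-cachectic library 2 in table order, and under median-ratio scaling, at 0.03 (limma adjusted p = 0.90). In soleus Cd36 was at 506, 534, 541, 498 and 604 TPM without and at 403, 424, 485, 421 and 552 TPM with the cachectic tumor, where the difference of -0.24 (SE 0.10) missed the threshold (limma adjusted p = 0.10). Under median-ratio scaling Cd36 was called lower in soleus. Other cell types known to make Cd36 were followed by their markers. Of 7 endothelial markers, 5 were called higher in the cachectic mock diaphragm, where their sum was 228 to 337 TPM against 198 to 267 TPM, as were 2 of 6 macrophage markers, with a sum of 277 to 1340.0 against 162 to 690.2 TPM, and 1 of 8 adipocyte markers, beside 30.9% of all genes higher. In tibialis anterior 5 endothelial markers were higher and 1 lower, with a sum of 135 to 291 against 101 to 137 TPM, and all 5 macrophage markers tested were higher, with a sum of 33.1 to 246 against 21.4 to 40.7 TPM, beside 56.4% of all genes higher. Of the adipocyte markers 1 was higher and 1 lower there. In soleus, where Cd36 was not called without that scaling, 1 endothelial marker was higher and 1 lower, 1 macrophage marker was higher and no adipocyte marker was called. Their part in the Cd36 result was not tested, and in whole muscle more cells of a type and more RNA per cell cannot be told apart.

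Fabp3 (chr4:130308595-130315463, plus strand), the heart-type fatty acid-binding protein that carries fatty acids through the cytosol of muscle fibers, had the highest mean of the 10 transcripts in 7 of the 8 groups, and in cachectic tibialis anterior Pdk4 was above it, at 491 ± 341 TPM against 365 ± 84.8 (SD, n = 5). It made up 78.0% of their summed TPM in non-cachectic mock diaphragm, 75.5% in non-cachectic soleus and 54.3% in non-cachectic tibialis anterior. In tibialis anterior Fabp3 was at 682, 1153, 898, 696 and 1074 TPM in the non-cachectic and at 419, 480.2, 269.9, 348 and 308 TPM in the cachectic libraries. Every cachectic library was below every non-cachectic one, and Fabp3 fell, with a log2 fold change of -1.30 (SE 0.19, 95% interval -1.71 to -0.89, limma adjusted p = 0.00063). In soleus it went from 4526, 4779, 6028, 4311 and 5364 TPM to 3917, 2453, 1409, 2862 and 3647 TPM, again without overlap, and fell, with -0.88 on the log2 scale (SE 0.24, limma adjusted p = 0.021), although without the highest non-cachectic library, library 3 in table order, the limma adjusted p was 0.054. In mock diaphragm the non-cachectic libraries had a lowest value of 3979, a median of 5113 and a highest of 5881 TPM and the cachectic ones a lowest value of 2508, a median of 4324 and a highest of 5704 TPM. These ranges overlapped widely and the difference of -0.23 (SE 0.11) was not called (limma adjusted p = 0.11), but under median-ratio scaling it was -0.46 and was called (limma adjusted p = 0.041).

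Plin2 and Plin5 coat lipid droplets. Plin2 (chr4:86648386-86670060, minus strand) is found in many cell types and follows the amount of stored lipid, and in tibialis anterior it was at 14.7, 13.2, 12.5, 13.2 and 12.95 TPM in the non-cachectic libraries and 15.8, 19.4, 32.5, 20.1 and 17.1 TPM in the cachectic ones. The groups did not overlap and Plin2 rose by 0.58 on the log2 scale (SE 0.17, limma adjusted p = 0.014), which median-ratio scaling reduced to 0.10 (limma adjusted p = 0.29). In soleus Plin2 was at 32.1, 23.2, 29.8, 23.6 and 26.1 TPM and 18.6, 23.7, 40.2, 21.5 and 24.7 TPM, with overlap, and differed by -0.10 (SE 0.18, limma adjusted p = 0.71). In mock diaphragm it had a lowest value of 24.2, a median of 33.2 and a highest of 42.8 TPM in the non-cachectic and a lowest value of 26.4, a median of 37.8 and a highest of 57.3 TPM in the cachectic group, a difference of 0.35 (SE 0.20) that was not called (limma adjusted p = 0.17).

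Plin5 (chr17:56111601-56117596, minus strand) is the droplet protein of oxidative tissues, which restrains lipolysis and ties droplets to mitochondria. In soleus it was at 58.2, 57.8, 61.4, 47.1 and 61.0 TPM in the non-cachectic libraries and at 35.5, 38.6, 36.6, 27.8 and 40.5 TPM in the cachectic ones. All 5 cachectic libraries were lower than all 5 non-cachectic ones, and Plin5 fell, with a log2 fold change of -0.66 (SE 0.11, 95% interval -0.91 to -0.42, limma adjusted p = 0.0020). In tibialis anterior it was scarce, at 13.3, 29.5, 21.3, 10.4 and 22.9 TPM and 11.1, 19.9, 14.9, 12.3 and 8.22 TPM, and the overlapping groups differed by -0.48 (SE 0.28, limma adjusted p = 0.14). Under median-ratio scaling Plin5 was called lower in tibialis anterior. In mock diaphragm Plin5 had a lowest value of 77.1, a median of 90.3 and a highest of 127 TPM without and a lowest value of 79.5, a median of 114 and a highest of 161 TPM with the cachectic tumor, a difference of 0.30 (SE 0.16) that was not called (limma adjusted p = 0.13).

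Angptl4 (chr17:33773750-33781830, minus strand), a secreted inhibitor of lipoprotein lipase that is made in fat as well as in muscle, was among the scarcest of the 10. In soleus it was at 12.3, 3.57, 5.90, 1.65 and 3.31 TPM in the non-cachectic and at 0.852, 12.5, 11.8, 6.70 and 1.29 TPM in the cachectic libraries. The cachectic range contained the non-cachectic one, and the difference was 0.05 with an SE of 0.61 (95% interval -1.28 to 1.37, limma adjusted p = 0.97), so a change of either sign was within error. In mock diaphragm it had a lowest value of 1.57, a median of 2.97 and a highest of 6.18 TPM in the non-cachectic and a lowest value of 1.69, a median of 6.17 and a highest of 22.6 TPM in the cachectic group, a difference of 0.77 (SE 0.46, limma adjusted p = 0.19). The tibialis anterior libraries held 1.39, 0.924, 0.657, 0.516 and 0.296 TPM and 0.990, 1.13, 2.27, 2.90 and 0.513 TPM and were not tested. The summed TPM of 8 adipocyte markers was 175 to 1340.2 in non-cachectic mock and 249 to 2808 in cachectic mock diaphragm, 359 to 1136 and 176 to 4920.5 in soleus and 32.6 to 71.0 and 34.7 to 75.8 in tibialis anterior, where Plin1 and Lep averaged under 1 TPM. Of the 8, 1 was called higher in mock diaphragm and none in soleus, and the part of fat in the Angptl4 values was not tested.

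Pdk4 and Cpt1b set the choice of fuel at the mitochondrion. Pdk4 (chr6:5483351-5496309, minus strand) switches off pyruvate dehydrogenase and so spares glucose. In tibialis anterior it was at 283, 275, 221, 246 and 208 TPM in the non-cachectic libraries and at 161, 936, 652, 571 and 134 TPM in the cachectic ones. The cachectic libraries lay on both sides of the non-cachectic group, with 3 above it and 2 below it, and the mean difference of 0.62 (SE 0.47) was not called (limma adjusted p = 0.25). In soleus Pdk4 was at 656, 331, 457, 445 and 658 TPM and 137, 511, 445, 393 and 188 TPM, again with overlap and a difference of -0.73 (SE 0.35, limma adjusted p = 0.15). In mock diaphragm it had a lowest value of 263, a median of 355 and a highest of 844 TPM in the non-cachectic and a lowest value of 101, a median of 467 and a highest of 1409 TPM in the cachectic group. The means thus nearly coincided on the log2 scale, with a difference of -0.03 (95% interval -1.04 to 0.98, limma adjusted p = 0.97), while the cachectic range reached beyond the non-cachectic one at both ends.

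Cpt1b (chr15:89416405-89425863, minus strand), the muscle carnitine palmitoyltransferase that commits long-chain fatty acids to mitochondrial entry, was measured at similar levels in diaphragm and soleus. In mock diaphragm it had a lowest value of 326, a median of 360.4 and a highest of 389 TPM in the non-cachectic and a lowest value of 273, a median of 369 and a highest of 436 TPM in the cachectic group, a difference of 0.02 (95% interval -0.15 to 0.20, limma adjusted p = 0.84). In tibialis anterior it was at 174, 199, 196, 173 and 207 TPM and 179, 213, 223, 193 and 172 TPM, a difference of 0.04 (SE 0.11, limma adjusted p = 0.72) that became -0.46 (limma adjusted p = 0.014) under median-ratio scaling. In soleus Cpt1b was at 392, 347, 428, 372 and 389 TPM without and at 356, 257, 221, 269 and 365 TPM with the cachectic tumor. It fell there, with -0.42 on the log2 scale (SE 0.14, limma adjusted p = 0.044), with 2 cachectic libraries inside the non-cachectic range, and the call was lost when any of 8 of the 10 libraries was left out, all but cachectic libraries 1 and 5.

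Acot1 and Acot2 are acyl-CoA thioesterases, which free fatty acids from coenzyme A in the cytosol and in mitochondria, respectively. In soleus Acot1 was at 14.7, 14.4, 18.7, 11.7 and 12.8 TPM in the non-cachectic and at 3.88, 7.22, 5.04, 3.55 and 6.21 TPM in the cachectic libraries. Acot2 was at 34.2, 31.2, 34.3, 29.3 and 30.6 TPM in the former and at 11.3, 13.9, 8.98, 10.0 and 16.2 TPM in the latter. For both genes every cachectic library was below every non-cachectic one. Acot1 fell, with a log2 fold change of -1.34 (SE 0.17, 95% interval -1.72 to -0.96, limma adjusted p = 0.00049) and so did Acot2, with -1.36 (SE 0.14, 95% interval -1.66 to -1.06, limma adjusted p = 0.0001), and both calls held without any single library.

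In tibialis anterior Acot1 was at 0.185, 0.773, 0.328, 0.124 and 0.312 TPM in the non-cachectic libraries and at 1.04, 1.73, 2.48, 1.17 and 1.26 TPM in the cachectic ones, all of them higher, and rose by 0.91 on the log2(TPM + 1) scale (SE 0.17, limma adjusted p = 0.0022). At these levels the pseudocount understates the fold, and with a pseudocount of 0.1 the difference was 1.98. Acot1 met the filter only through its 5 cachectic libraries, so passing the filter already required a difference, and without any filter it was called as well (limma adjusted p = 0.0059). Acot2 was at 7.41, 12.1, 9.81, 7.48 and 8.80 TPM and 5.33, 10.7, 7.16, 7.40 and 6.07 TPM, a difference of -0.29 (SE 0.18) that was not called (limma adjusted p = 0.16) and that became -0.73 (limma adjusted p = 0.016) under median-ratio scaling. In mock diaphragm Acot1 had a lowest value of 5.03, a median of 9.88 and a highest of 14.3 TPM in the non-cachectic and a lowest value of 5.85, a median of 12.7 and a highest of 49.8 TPM in the cachectic group, and Acot2 had 12.6, 19.6 and 26.7 TPM and 7.70, 14.5 and 35.7 TPM in the same order. Neither was called there, with 0.58 (SE 0.41, limma adjusted p = 0.26) for Acot1 and -0.40 (SE 0.27, limma adjusted p = 0.25) for Acot2.

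Ucp3 (chr7:100472990-100486432, plus strand) is a carrier of the mitochondrial inner membrane that is found mainly in skeletal muscle and that rises when fatty acid supply is high. In soleus it was at 69.8, 30.6, 48.7, 42.7 and 52.3 TPM in the non-cachectic and at 6.43, 33.0, 23.8, 37.3 and 5.55 TPM in the cachectic libraries. Of the cachectic libraries, 2 were far below all others and 2 were inside the non-cachectic range. Ucp3 fell, with -1.47 on the log2 scale (SE 0.48, limma adjusted p = 0.044), a call that was lost when any of 8 of the 10 libraries was left out, all but cachectic libraries 2 and 4. In tibialis anterior it was at 83.0, 61.8, 95.3, 81.4 and 66.5 TPM and 27.1, 83.1, 31.5, 117 and 22.02 TPM, where 3 cachectic libraries were below the non-cachectic group and 1 was above it, and the difference of -0.75 (SE 0.40) was not called (limma adjusted p = 0.11). In mock diaphragm Ucp3 had a lowest value of 25.8, a median of 29.0 and a highest of 46.9 TPM in the non-cachectic and a lowest value of 6.98, a median of 38.3 and a highest of 66.9 TPM in the cachectic group, with a difference of -0.22 (SE 0.37, limma adjusted p = 0.65).

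**Figure D2:**
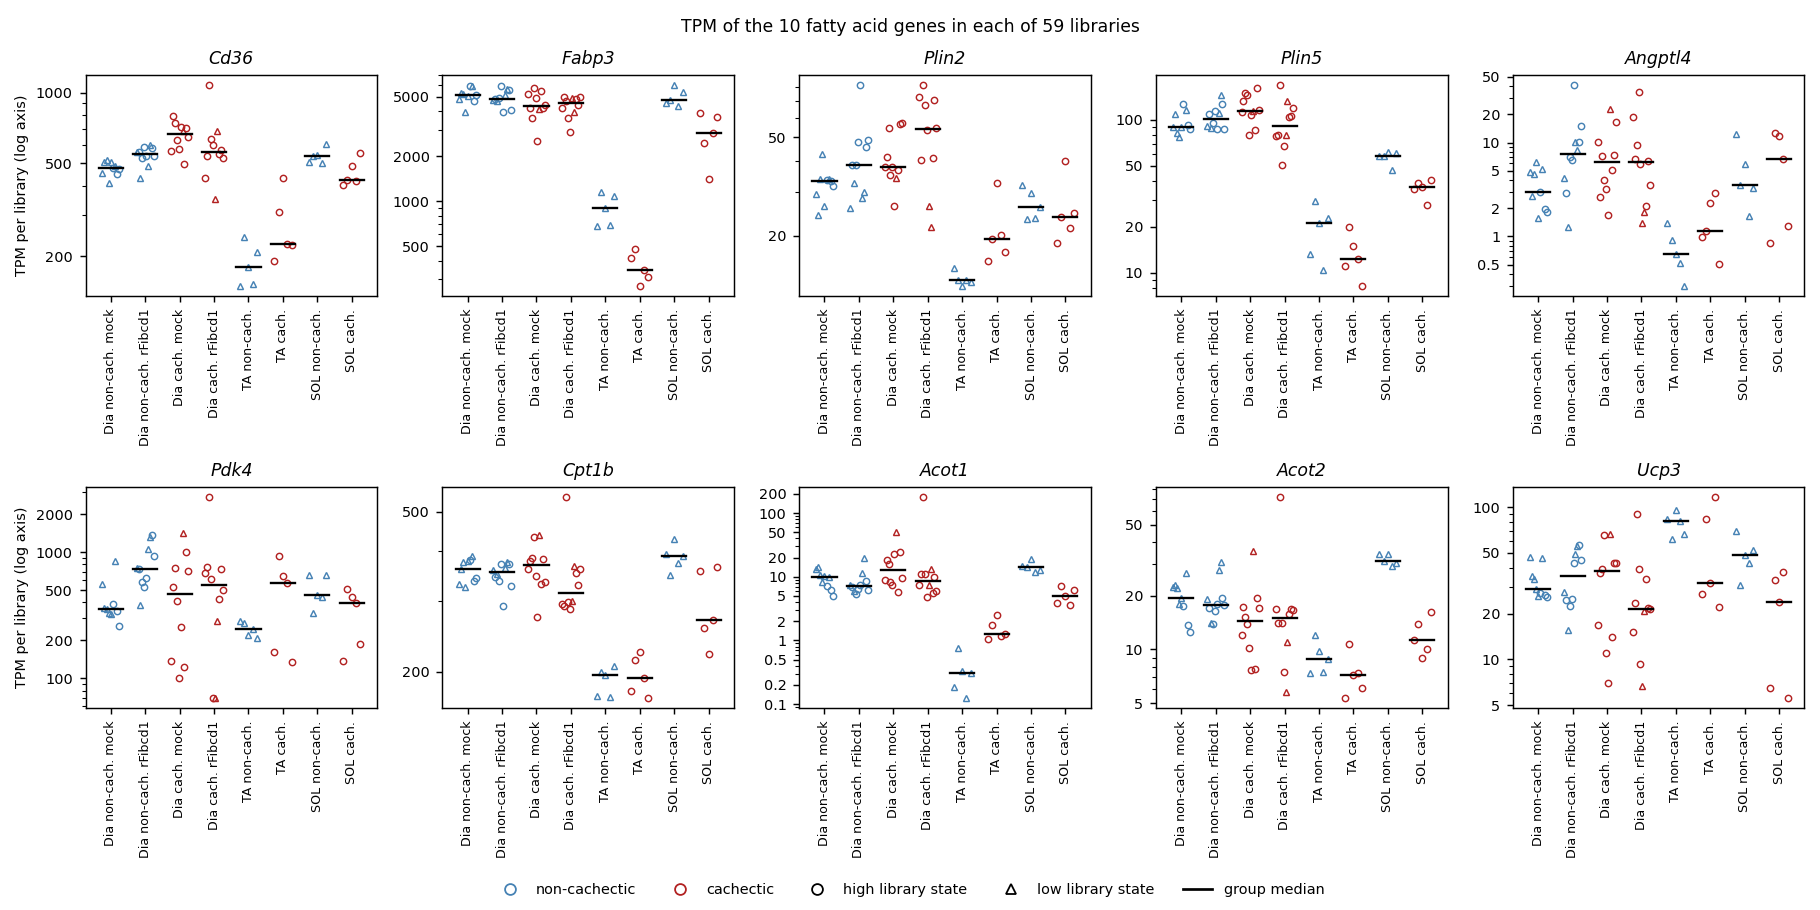
TPM of each of the 10 genes on a log axis in all 59 libraries, 1 point per library, by muscle, tumor and treatment, with a line at the group median, circles for high-state and triangles for low-state libraries. Acot1, Acot2, Plin5 and Fabp3 do not overlap between the soleus groups, Acot1, Plin2 and Fabp3 do not overlap between the tibialis anterior groups, and Pdk4 ranges from 69.8 to 2753 TPM in cachectic rFibcd1 diaphragm.

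Whether the melanoma difference itself varied between muscles was tested as a difference of differences in 1 fit of the 39 libraries without rFibcd1. The tests share groups with each other and treat all libraries as separate mice. Columns of the table carry numbers that recur in the 3 muscles, and libraries with the same number tended to deviate together from their group means, so the tests were also made with that number as a block, over the 30 libraries whose number occurs in all of them. Between tibialis anterior and soleus 4 of the 10 genes were called, beside 20.4% of 13501 genes called and 19.1% higher, and each was higher in tibialis anterior relative to soleus. They were Acot1 (2.25, SE 0.48, limma adjusted p = 0.0018), Acot2 (1.07, SE 0.35, limma adjusted p = 0.031), Cd36 (0.77, SE 0.21, limma adjusted p = 0.012) and Cpt1b (0.46, SE 0.16, limma adjusted p = 0.038). Only Acot1 was called under median-ratio scaling, beside 11.5% of all genes, at 2.19 (limma adjusted p = 0.0039). Acot1 fell in soleus and rose in tibialis anterior. The Acot2 call was lost without cachectic tibialis anterior library 2 or 3, non-cachectic tibialis anterior library 1 or 4, or cachectic soleus library 1, and the Cpt1b call without any of 11 of the 20 libraries. The other differences were -0.42 for Fabp3, 0.68 for Plin2, 0.18 for Plin5, 0.44 for Angptl4, 1.35 for Pdk4 and 0.72 for Ucp3 (limma adjusted p of at least 0.060). With the block 7 genes were called, all higher in tibialis anterior relative to soleus, beside 39.1% of all genes. These were the 4 named and Pdk4 (1.35, SE 0.26, limma adjusted p = 0.0011), Plin2 (0.68, SE 0.16, limma adjusted p = 0.0030) and Ucp3 (0.72, SE 0.27, limma adjusted p = 0.039). With the block and median-ratio scaling together, 4 were called, Acot1, Acot2 and Pdk4 higher and Fabp3 lower, beside 23.7% of all genes.

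Between diaphragm and soleus 3 genes were called, Acot1 (1.92, SE 0.42, limma adjusted p = 0.0080), Plin5 (0.96, SE 0.26, limma adjusted p = 0.034) and Cd36 (0.69, SE 0.18, limma adjusted p = 0.034), beside 2.52% of all genes called and 1.95% higher. All 3 were higher in diaphragm relative to soleus. The Plin5 and Cd36 calls were each lost without any of 6 of the 29 libraries, all 6 of them soleus libraries. Acot2 and Cpt1b differed by 0.96 and 0.44 and missed the threshold (limma adjusted p = 0.088 and 0.082), and the others differed by 0.65 for Fabp3, 0.45 for Plin2, 0.73 for Angptl4, 0.70 for Pdk4 and 1.25 for Ucp3 (limma adjusted p of at least 0.18). Under median-ratio scaling Acot1 and Cd36 were called, beside 3.73% of all genes, and Plin5 was not, at 0.81 (limma adjusted p = 0.087). With the block 6 genes were called, all higher in diaphragm relative to soleus, beside 5.75% of all genes. They were the 3 named and Ucp3 (1.25, SE 0.27, limma adjusted p = 0.010), Acot2 (0.76, SE 0.19, limma adjusted p = 0.022) and Fabp3 (0.82, SE 0.21, limma adjusted p = 0.025), and with median-ratio scaling added only Acot1 and Cd36 were called, beside 5.68%.

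Between diaphragm and tibialis anterior Fabp3 was called (1.07, SE 0.26, limma adjusted p = 0.012), beside 5.04% of all genes called and 0.711% higher, with differences of -0.23 in diaphragm and -1.30 in tibialis anterior. The others differed by -0.08 for Cd36, -0.23 for Plin2, 0.78 for Plin5, 0.28 for Angptl4, -0.65 for Pdk4, -0.02 for Cpt1b, -0.33 for Acot1, -0.11 for Acot2 and 0.53 for Ucp3 (limma adjusted p of at least 0.065). Under median-ratio scaling Plin5 was called too, at 1.03 (limma adjusted p = 0.019), beside 5.15% of all genes. With the block Fabp3 (1.23, SE 0.21, limma adjusted p = 0.0013) and Plin5 (0.92, SE 0.25, limma adjusted p = 0.018) were higher in diaphragm relative to tibialis anterior, beside 3.38% of all genes, and Pdk4 (-0.97, SE 0.26, limma adjusted p = 0.020) and Acot1 (-0.92, SE 0.20, limma adjusted p = 0.0061) were lower, beside 12.9%. With median-ratio scaling added, Fabp3, Plin5 and Acot1 were called, beside 17.8%. The block uses 10 of the 19 mock diaphragm libraries, so its diaphragm differences are over fewer libraries.

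Levels in the non-cachectic groups gave the setting of these genes in mice whose tumor did not cause wasting. Tibialis anterior had less of 8 of the 10 transcripts than soleus, beside 69.5% of genes called and 63.9% lower. Under median-ratio scaling the same 8 were lower and Ucp3 was higher, beside 25.1% of all genes lower and 28.2% higher. Acot1 differed by -3.53 on the log2 scale (SE 0.34, limma adjusted p = 6.2e-11), with group means of 0.345 ± 0.254 and 14.5 ± 2.68 TPM (SD, n = 5 each). The pseudocount of 1 TPM understates this fold, and with a pseudocount of 0.1 the difference was -5.18. Fabp3 differed by -2.49 (SE 0.21, limma adjusted p = 1.7e-12), with means of 901 ± 214 and 5002 ± 696 TPM. Acot2 (-1.72), Angptl4 (-1.66), Plin5 (-1.59), Cd36 (-1.55), Cpt1b (-1.02) and Plin2 (-0.96) were called as well, where the median gene was at -0.47. Pdk4 was at -1.01 (limma adjusted p = 0.11) and Ucp3 went the other way at 0.69 (limma adjusted p = 0.22), neither called. With the block both were, Pdk4 (-1.01, SE 0.19, limma adjusted p = 7.4e-05) and Ucp3 (0.69, SE 0.19, limma adjusted p = 0.0029), beside 76.7% of all genes. With the block and median-ratio scaling together Pdk4 was not called, at -0.38 (limma adjusted p = 0.11), and Ucp3 was, at 1.31 (limma adjusted p = 8.7e-05), beside 62.4%. Dunn's test called 6 genes, beside 37% of all genes, without Plin5 and Plin2 (Dunn adjusted p = 0.19 and 0.099). Under median-ratio scaling Ucp3 was called higher in tibialis anterior, at 1.31 (limma adjusted p = 0.031). All 8 adipocyte, 7 endothelial and 6 macrophage markers were also called lower in tibialis anterior, with sums of 32.6 to 71.0, 101 to 137 and 21.4 to 40.7 TPM against 359 to 1136, 177 to 233 and 68.7 to 109 TPM in soleus. Their part in the levels of Cd36, Plin2 and Angptl4 was not tested.

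Mock diaphragm of non-cachectic mice had more of 8 genes than non-cachectic tibialis anterior and less Ucp3, beside 72.5% of genes called, 64% higher and 8.52% lower. The 8 differences ran from 0.91 for Cpt1b to 2.92 for Acot1, with 1.37 for Cd36, 2.53 for Fabp3, 1.19 for Plin2, 2.32 for Plin5, 1.31 for Angptl4 and 1.01 for Acot2, and the median gene was at 0.44. With a pseudocount of 0.1 the Acot1 difference was 4.52. Under median-ratio scaling 7 genes were higher and Ucp3 lower, beside 34.6% and 36.4% of all genes, and Acot2 was no longer called, at 0.48 (limma adjusted p = 0.081). Ucp3 was at 32.9 ± 8.35 TPM in diaphragm (SD, n = 9) and 77.6 ± 13.5 TPM in tibialis anterior (SD, n = 5), a log2 difference of -1.23 (SE 0.44, limma adjusted p = 0.013). Pdk4 did not pass, at 0.68 (limma adjusted p = 0.21), and was called with the block (0.62, SE 0.19, limma adjusted p = 0.0057), beside 74.5% of all genes, but not with the block and median-ratio scaling together, at 0.08 (limma adjusted p = 0.72), beside 75.3%. Of the markers, 7 of 8 adipocyte, 7 of 7 endothelial, 6 of 6 macrophage and 5 of 6 liver genes were higher in diaphragm, with sums of 175 to 1340.2, 198 to 267, 162 to 690.2 and 0.863 to 9658 TPM, against 0.149 to 0.720 TPM for liver in tibialis anterior. Their part was not tested. Diaphragm and soleus were closer, with 2 of 10 genes called beside 38.8% of all genes. Plin5 was higher in diaphragm by 0.74 (SE 0.18, limma adjusted p = 0.0016) and Acot2 lower at -0.71 (SE 0.22, limma adjusted p = 0.0097), although neither was called by Dunn's test, beside 8.73% of all genes. The others differed by -0.18 for Cd36, 0.03 for Fabp3, 0.24 for Plin2, -0.36 for Angptl4, -0.32 for Pdk4, -0.11 for Cpt1b, -0.61 for Acot1 and -0.54 for Ucp3 (limma adjusted p of at least 0.10), and of these Ucp3 (-0.48, SE 0.19, limma adjusted p = 0.043) was called with the block, beside 48.1% of all genes. With median-ratio scaling added to the block Ucp3 was not called, at -0.40 (limma adjusted p = 0.17), and Plin2 was, at 0.28 (limma adjusted p = 0.030), beside 52.5%. Diaphragm mice were mock-injected and limb labels name no injection, so muscle and injection cannot be told apart here.

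Summed over the 10 genes, the mean was 6561 TPM in non-cachectic mock diaphragm, 6618 TPM in non-cachectic soleus and 1643 TPM in non-cachectic tibialis anterior, and 6234, 4049.6 and 1429 TPM in the cachectic groups of the same muscles. These sums follow Fabp3, whose share in cachectic tibialis anterior was 27.7%. Ordered by mean over all 8 groups, the 10 genes gave 70 pairs of neighbours, of which 8, or 11.4%, did not overlap in range, beside 6.73% of the neighbour pairs of all 14159 genes at 1 TPM or more in at least 5 of the 59 libraries. Acot1 dropped without overlap from cachectic soleus to cachectic tibialis anterior and again to non-cachectic tibialis anterior. Fabp3 dropped from cachectic soleus to non-cachectic and then cachectic tibialis anterior. Plin5 dropped from non-cachectic mock diaphragm to non-cachectic and then cachectic soleus, Plin2 from cachectic to non-cachectic tibialis anterior, and Acot2 from non-cachectic soleus to non-cachectic mock diaphragm. A tibialis anterior group had the lowest mean for 9 of the genes, and for Ucp3 the lowest was cachectic soleus, at 21.2 ± 14.7 TPM, and the highest non-cachectic tibialis anterior, at 77.6 ± 13.5 TPM (SD, n = 5 each). For Pdk4 the group means ran from 246 TPM in non-cachectic tibialis anterior to 829.9 TPM in non-cachectic rFibcd1 diaphragm, with overlap between all neighbours.

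The effect of rFibcd1 was tested in diaphragm, in which it was given. None of the 10 genes was called by limma for rFibcd1 against mock in cachectic diaphragm, beside 0.0447% of 13426 genes, in non-cachectic diaphragm, beside 0.417%, or for the interaction of tumor and treatment, beside 0.0223%. At an unadjusted p under 0.05 the counts were 1, 1 and 2 genes, beside 10.5%, 17.4% and 8.79% of all genes, and Dunn's test called 0 in both treatment comparisons, beside 0% and 0.104% of all genes. In cachectic diaphragm Plin5 had a lowest value of 50.6, a median of 91.7 and a highest of 169.9 TPM with rFibcd1, against 79.5, 114 and 161 TPM with mock, a log2 difference of -0.33 (SE 0.15, 95% interval -0.64 to -0.02, limma adjusted p = 0.45). Cd36 had a lowest value of 351, a median of 557 and a highest of 1082 TPM there, against 494, 666 and 791 TPM with mock, a difference of -0.18 (SE 0.11, limma adjusted p = 0.59). Pdk4 had a lowest value of 69.8, a median of 554 and a highest of 2753 TPM with rFibcd1, so its error left a wide interval of -0.84 to 1.13 around 0.15 (limma adjusted p = 0.94). The other 7 differences were -0.01 for Fabp3, 0.26 for Plin2, -0.06 for Angptl4, -0.11 for Cpt1b, -0.29 for Acot1, 0.07 for Acot2 and -0.30 for Ucp3 (limma adjusted p of at least 0.65).

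In non-cachectic diaphragm Angptl4 had a lowest value of 1.25, a median of 7.60 and a highest of 41.4 TPM with rFibcd1 against 1.57, 2.97 and 6.18 TPM with mock, a difference of 1.01 (SE 0.46, limma adjusted p = 0.28). Pdk4 had a lowest value of 378, a median of 739 and a highest of 1380.3 TPM against 263, 355 and 844 TPM, a difference of 0.97 (SE 0.50, limma adjusted p = 0.30). The lowest rFibcd1 value of Pdk4 was above the mock median, but the groups overlapped for both genes and neither passed. The other 8 differences were 0.18 for Cd36, -0.05 for Fabp3, 0.31 for Plin2, 0.12 for Plin5, -0.04 for Cpt1b, -0.17 for Acot1, -0.01 for Acot2 and 0.06 for Ucp3 (limma adjusted p of at least 0.35). In the same 2 groups the summed TPM of the clock genes Dbp, Ciart, Per2 and Per3 was 6.56 to 74.3 with rFibcd1 and 79.2 to 238 with mock. That of the clock genes Arntl, Npas2 and Clock was 22.28 to 48.3 with rFibcd1 and 3.98 to 22.19 with mock, so neither sum overlapped. With an index of these clock genes as a term in the fit the Angptl4 difference was 0.33 (limma adjusted p = 1.0). As the clock genes separated the 2 groups, this fit cannot tell treatment and clock genes apart. The summed TPM of the 8 adipocyte markers was 202 to 4652 with rFibcd1 and 175 to 1340.2 with mock, and its part in these values was not tested.

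Under rFibcd1 the cachectic and non-cachectic diaphragms also gave no call among the 10 genes, and no unadjusted p under 0.05, beside 9.11% of all genes called and 25% at an unadjusted p under 0.05. Cd36, which rose with mock, was at 595 ± 196 TPM in cachectic and 539.6 ± 50.02 TPM in non-cachectic diaphragm with rFibcd1 (SD, n = 10 each), a difference of 0.09 (95% interval -0.14 to 0.32, limma adjusted p = 0.67). The interaction for Cd36 was -0.36 (SE 0.16, limma adjusted p = 0.55) and that for Plin5 -0.45 (SE 0.22, limma adjusted p = 0.57), so the melanoma difference was not shown to depend on rFibcd1. For the others it was 0.04 for Fabp3, -0.05 for Plin2, -1.07 for Angptl4, -0.82 for Pdk4, -0.07 for Cpt1b, -0.12 for Acot1, 0.08 for Acot2 and -0.36 for Ucp3 (limma adjusted p of at least 0.64). Pdk4 differed by -0.85 (SE 0.49, limma adjusted p = 0.28) between the tumors under rFibcd1, and the other 8 genes by -0.19 for Fabp3, 0.30 for Plin2, -0.15 for Plin5, -0.30 for Angptl4, -0.05 for Cpt1b, 0.46 for Acot1, -0.32 for Acot2 and -0.58 for Ucp3 (limma adjusted p of at least 0.28). The Acot1 value rests on 1 cachectic rFibcd1 library, at 181 TPM where the next had 13.2, which was the highest of its group for 8 of the 10 genes. Without it the tumor difference under rFibcd1 was 0.03 for Acot1, -0.01 for Cd36 and -1.15 for Pdk4 (limma adjusted p = 0.12). The difference of rFibcd1 against mock in cachectic diaphragm was -0.72 for Acot1, -0.15 for Pdk4 and -0.28 for Cd36 (limma adjusted p of at least 0.12). None of the 10 genes was called without it in these comparisons or for the interaction, where Cd36 was at -0.47 (limma adjusted p = 0.17). At an unadjusted p under 0.05 there were then 3, 4 and 2 genes, beside 24.1%, 15.8% and 11.8% of all genes.

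The groups also differed in how far their libraries spread. In mock diaphragm all 10 genes had a larger SD of log2(TPM + 1) in the cachectic than in the non-cachectic group, beside 81.7% of all genes tested. The SD was 1.34 against 0.50 for Pdk4, 1.08 against 0.33 for Ucp3, 1.00 against 0.56 for Angptl4 and 0.90 against 0.45 for Acot1, where the medians of all genes were 0.24 against 0.16. In rFibcd1 diaphragm all 10 were again wider in the cachectic group, beside 90.4% of genes, with 1.60 against 0.60 for Pdk4. In soleus all 10 were wider, beside 86.7%, with 1.22 against 0.42 for Ucp3. In tibialis anterior 7 of the 9 tested were wider, beside 92.1%, with 1.26 against 0.19 for Pdk4, and Plin5 and Fabp3 were not. A wider spread was thus general in the cachectic libraries, and these counts, with few genes and 5 to 10 libraries a group, were not tested against it.

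**Figure D3:**
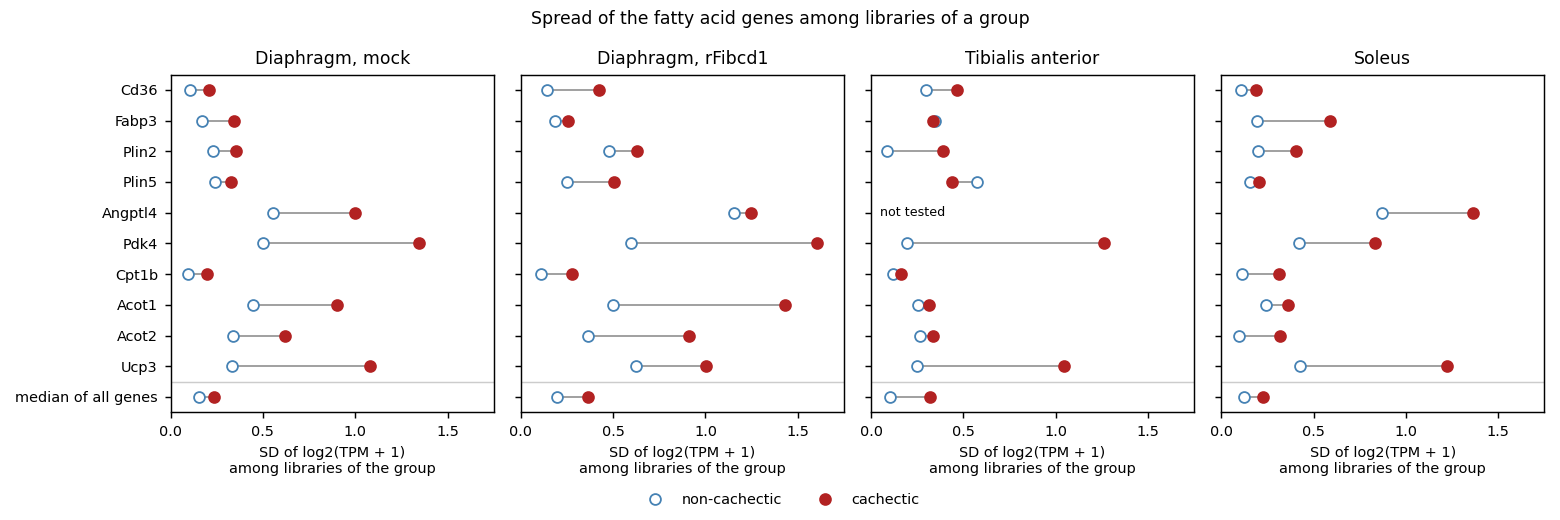
SD of log2(TPM + 1) among the libraries of a group for each of the 10 genes and, in the last row, the median over all genes tested, with open points for non-cachectic and filled points for cachectic groups in 4 panels by muscle and treatment. The filled point lies to the right for every gene in both diaphragm panels and in soleus, and for 7 of 9 in tibialis anterior, and Pdk4 has SDs of 1.34 and 0.50 in mock diaphragm.

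The same libraries tended to be extreme for several of the genes. In cachectic rFibcd1 diaphragm 1 library was the highest for 8 of the 10 genes, all but Angptl4 and Fabp3. It held 2753 TPM of Pdk4, 90.7 TPM of Ucp3 and 181 TPM of Acot1, where the second-highest library of the group had 769.9, 39.1 and 13.2 TPM. In cachectic mock diaphragm 1 library was the highest for 6 genes (Pdk4, Ucp3, Acot1, Acot2, Angptl4 and Cpt1b) and another was the lowest for 6 (Ucp3, Acot2, Angptl4, Cpt1b, Plin2 and Fabp3). The same column numbers were also extreme in different muscles. In the cachectic libraries numbered 6, 7, 8, 9 and 10, Pdk4 was at 138, 526.4, 748, 408 and 101 TPM in mock diaphragm, beside 161, 936, 652, 571 and 134 TPM in tibialis anterior and 137, 511, 445, 393 and 188 TPM in soleus. Of these 5, numbers 6 and 10 were the lowest in each muscle. Ucp3 was at 16.8, 37.2, 39.5, 65.9 and 11.04 TPM in the same diaphragm libraries, where 6 and 10 were again the lowest, as they were in both limb muscles. The summed TPM of the brown adipocyte markers Ucp1, Cidea and Elovl3 also varied between diaphragm libraries. With mock it was 6.32 to 15.0 in the non-cachectic and 11.1 to 77.4 in the cachectic group. With rFibcd1 it was 8.11 to 334 and 8.35 to 109 in the same order. The part of brown fat in the spread of these genes was not tested.

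Over the 39 diaphragm libraries, with group means removed, 38 of the 45 pairs among the 10 genes had a Pearson r above 0, with a median of 0.50. The closest pairs were Pdk4 and Acot2 (r = 0.86), Pdk4 and Ucp3 (r = 0.83), Ucp3 and Acot2 (r = 0.83) and Acot1 and Acot2 (r = 0.81). Reads that match both Acot1 and Acot2 are part of the last value to an unknown extent. Without the library that was highest for 8 genes these values were 0.85, 0.80, 0.80 and 0.64, and over all pairs the median r was 0.36, with 36 above 0. Cpt1b followed Acot2 (r = 0.74) and Plin5 (r = 0.72), and Angptl4 followed Plin2 (r = 0.66) rather than Plin5 (r = -0.20). The points of a pair share their library and its TPM total, and the r values are given as a description.

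**Figure D4:**
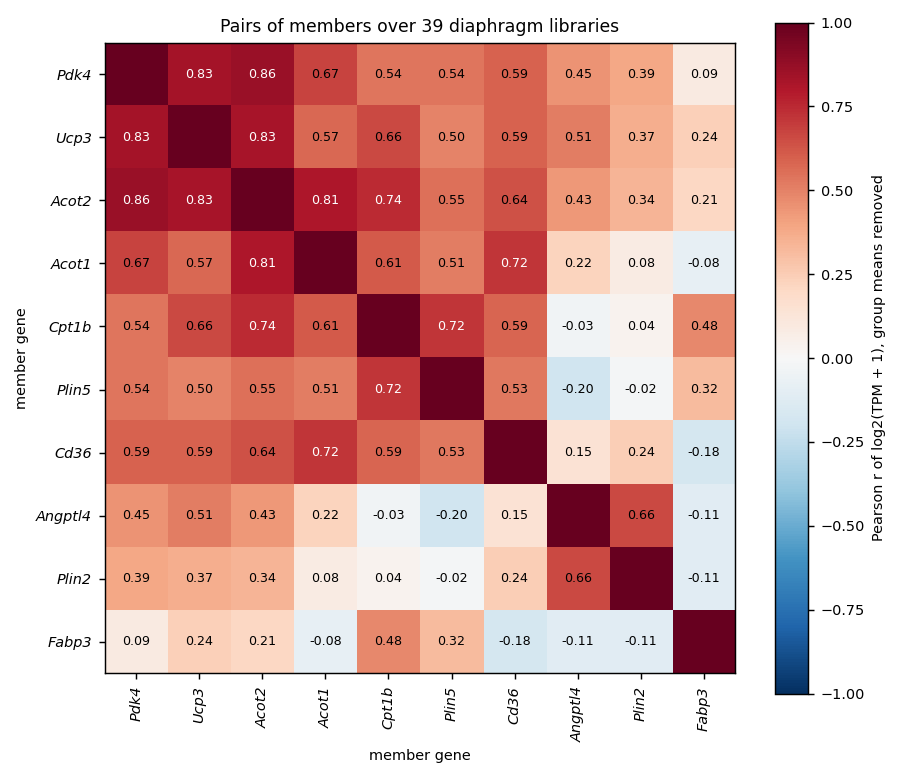
Pearson r of log2(TPM + 1) between each pair of the 10 genes over 39 diaphragm libraries after the group means were taken out, colored from negative to positive. Pdk4, Ucp3 and Acot2 form a block of r from 0.83 to 0.86, and Angptl4 is nearest to Plin2 at 0.66.

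Among 9056 genes with a mean of at least 5 TPM in diaphragm, the genes most like each of the 10 over the same 39 libraries, without removing group means, were taken as the 3 with the highest r, of which those reported are named. Acot2 (0.83), Slc25a34 (0.81) and Ucp3 (0.80) were nearest to Pdk4, and Acot2 (0.82), Pdk4 and Slc25a22 (0.78) to Ucp3, so Pdk4, Ucp3 and Acot2 stood among each other's nearest genes. Acot2 was nearest to Oplah (0.85) and also had Pdk4 among its 3. Cpt1b was nearest to Crat (0.78), carnitine acetyltransferase, and Mlycd (0.76), malonyl-CoA decarboxylase, which removes the inhibitor of Cpt1b, and Plin5 also had Mlycd (0.80) and Crat (0.75) among its 3. Fabp3 was nearest to the respiratory chain genes Sdhc (0.76), Uqcrc1 (0.76) and Atp5j (0.76). Acot1 had Eci2 (0.81), an enoyl-CoA isomerase, Tacc2 and Retsat, and Cd36 had Retsat (0.86) and Tacc2 (0.85) among its 3. Plin2 was nearest to Pced1a (0.88), Ap1m1 and Trim26, and Angptl4 to Pddc1 (0.79), Pold4 and Tcf3.

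The receptors that drive these genes were measured in the same libraries. Of 14 genes for PPARs, their RXR partners and coactivators, 5 rose and none fell in mock diaphragm (median difference 0.18, all genes 0.20), beside 30.9% of all genes higher. In tibialis anterior 7 rose and 2 fell (median 0.37, all genes 0.41), beside 56.4% higher and 3.78% lower, and in soleus 1 rose and 1 fell (median 0.04, all genes 0.09), beside 17.5% and 7.54%. Under median-ratio scaling the counts were 0 and 0, 2 higher and 4 lower, and 0 higher and 3 lower, so none of the 5 rises in mock diaphragm was called under it. The shares of all genes under this scaling were 7.39% higher and 8.41% lower in mock diaphragm, 18.4% and 21.9% in tibialis anterior and 15.2% and 12.8% in soleus. They are the background of all list counts so scaled. Ppara, the receptor of fasting and fatty acid oxidation, fell in tibialis anterior from 7.10 to 4.64 TPM (-0.52, SE 0.16, limma adjusted p = 0.020), and it was at 0.04 in mock diaphragm (limma adjusted p = 0.93) and -0.10 in soleus (limma adjusted p = 0.69). Under median-ratio scaling the fall of Ppara in tibialis anterior was -0.93 (limma adjusted p = 0.0038). Ppard, the main PPAR of muscle, rose in mock diaphragm (0.36, SE 0.09, limma adjusted p = 0.0031) and tibialis anterior (0.58, SE 0.16, limma adjusted p = 0.012) and was at -0.01 in soleus (limma adjusted p = 0.94), and neither rise was called under median-ratio scaling, at 0.14 and 0.11 (limma adjusted p = 0.41 and 0.19). Pparg, the receptor of adipocytes, was not called in any of the 3. Rxra rose in mock diaphragm (0.48, limma adjusted p = 0.0074) and soleus (0.45, limma adjusted p = 0.011), which median-ratio scaling did not call in either. The coactivator Ppargc1b fell in tibialis anterior (-0.61, limma adjusted p = 0.013) and soleus (-0.52, limma adjusted p = 0.030), and Lpin1, a coactivator and phosphatidate phosphatase, rose in tibialis anterior (1.42, limma adjusted p = 0.0012).

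The list of 17 genes of mitochondrial beta-oxidation holds Cpt1a, a paralog of Cpt1b, and the carrier Slc25a20 beside genes that act after them. Of these 17 genes, 12 fell in soleus and none rose, beside 7.54% of all genes that were lower. Their median difference was -0.54 in soleus, -0.23 in tibialis anterior and -0.18 in mock diaphragm. Hadhb, the thiolase subunit of the trifunctional protein, fell furthest of those called with a mean of at least 5 TPM in soleus (-0.97, SE 0.19, limma adjusted p = 0.0038) and in mock diaphragm (-0.43, SE 0.14, limma adjusted p = 0.015). In tibialis anterior 5 fell, beside 3.78% lower, with Acaa2 the furthest (-0.56, SE 0.13, limma adjusted p = 0.0066), and Echs1 rose (0.59, limma adjusted p = 0.0080). In mock diaphragm 5 fell and none rose, beside 2.67% lower. Under median-ratio scaling 12 fell in soleus, 13 in tibialis anterior and 8 in mock diaphragm, beside 12.8%, 21.9% and 8.41% of all genes lower, and none rose in any, Echs1 included, which was at 0.10 in tibialis anterior (limma adjusted p = 0.45). In soleus the calls among beta-oxidation genes were thus all falls under both scalings.

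**Figure D5:**
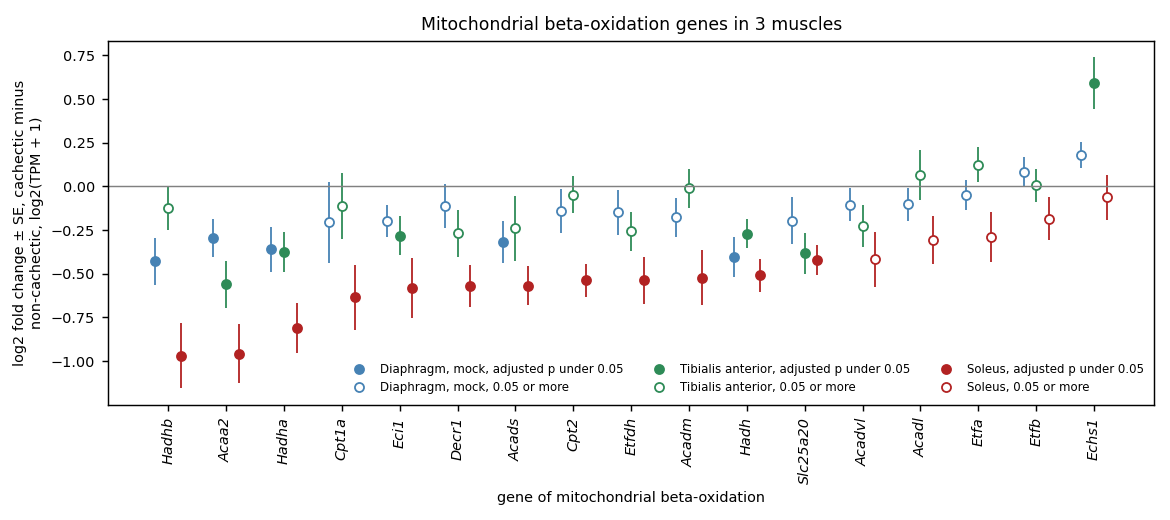
Log2 fold change with its SE, cachectic minus non-cachectic, of 17 genes of mitochondrial beta-oxidation in mock diaphragm, tibialis anterior and soleus, with filled points for an adjusted p under 0.05. In soleus 12 of the 17 points are filled and all of these lie below 0, down to -0.97 for Hadhb.

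Of 14 other genes of fatty acid uptake and activation, 3 rose and 1 fell in mock diaphragm, beside 30.9% of all genes higher and 2.67% lower. In tibialis anterior 8 rose and 2 fell, beside 56.4% higher and 3.78% lower. None rose and 2 fell in soleus, beside 7.54% lower. Acsl1, the main acyl-CoA synthetase of muscle and itself a PPAR target, fell in all 3 muscles, with log2 fold changes of -0.52 in mock diaphragm (SE 0.16, limma adjusted p = 0.013), -0.71 in tibialis anterior (SE 0.14, limma adjusted p = 0.0030) and -0.62 in soleus (SE 0.11, limma adjusted p = 0.0027). Gpihbp1, the endothelial anchor of lipoprotein lipase, rose in mock diaphragm (0.63, limma adjusted p = 0.0015), and Acsl5 rose in tibialis anterior (0.84, limma adjusted p = 0.0025). Under median-ratio scaling none rose and 1 fell in mock diaphragm, none rose and 5 fell in soleus, and 2 rose and 5 fell in tibialis anterior, where Acsl5 was still called (limma adjusted p = 0.0064), and Gpihbp1 in diaphragm was not (limma adjusted p = 0.15).

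Of 15 genes of lipid droplets and lipolysis, 6 rose and none fell in mock diaphragm, beside 30.9% of all genes higher, led by Pnpla3 (0.92, limma adjusted p = 0.028). In tibialis anterior 6 of the 14 tested rose, beside 56.4% higher, Plin4 the furthest (1.38, limma adjusted p = 0.0043), and 2 fell, beside 3.78% lower, G0s2, an inhibitor of lipolysis, the furthest (-1.40, limma adjusted p = 0.0086). In soleus Plin4 rose (0.52, limma adjusted p = 0.043), beside 17.5% of all genes higher. There 2 fell, beside 7.54% lower, including Gpam, which starts triglyceride synthesis (-1.49, limma adjusted p = 1.7e-05). Under median-ratio scaling 2 of these genes rose and 1 fell in mock diaphragm and 2 rose and 6 fell in tibialis anterior, with 1 and 2 in soleus, and the named ones kept their calls but for Pnpla3 (limma adjusted p = 0.094). Plin1, Lipe and Cidec of this list are also adipocyte markers and Cidea is a brown adipocyte marker. In mock diaphragm none of these 4 was called, at 0.72, 0.64, 1.24 and 0.63 (limma adjusted p of at least 0.067), where the 8 adipocyte markers summed to a mean of 1131 TPM in the cachectic and 495 TPM in the non-cachectic group. In tibialis anterior Lipe rose (0.38, limma adjusted p = 0.043), with marker sums of 55.5 and 48.4 TPM. The part of fat in these counts was not tested. Of 17 further PPAR targets, of which Hadhb is also a beta-oxidation gene, 5 of 11 tested fell and none rose in soleus, beside 7.54% lower, where Slc25a34, a mitochondrial carrier, was at -1.11 (limma adjusted p = 0.00025). In tibialis anterior 2 of 10 tested rose, Ucp2 the furthest (1.00, limma adjusted p = 0.0082), and 2 fell, Slc25a34 the furthest (-1.15, limma adjusted p = 0.00048), beside 56.4% of all genes higher and 3.78% lower. In mock diaphragm 1 of 13 rose and Hadhb fell, beside 30.9% higher and 2.67% lower. Under median-ratio scaling none rose and 6 fell in soleus, 1 rose and 7 fell in tibialis anterior, and none rose and 2 fell in mock diaphragm. Slc25a34 fell in both limb muscles under both scalings, and it was the second-nearest gene to Pdk4 in diaphragm.

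Paralogs of the 10 genes are not all PPAR targets. Ucp2, Cpt1a, Plin1, Plin3, Plin4, Fabp4 and Fabp5 are among the paralogs and are also counted in the lists above. Of 30 paralogs, 8 of 27 tested rose and none fell in mock diaphragm, beside 30.9% of all genes higher, 11 of 21 rose and 1 fell in tibialis anterior, beside 56.4% higher, and 3 of 23 rose and 3 fell in soleus, beside 17.5% and 7.54%, while under median-ratio scaling 4 rose and 6 fell, 8 rose and 7 fell, and 3 rose and 6 fell. Scarb1, a Cd36 relative that takes up lipid from lipoproteins, rose in mock diaphragm (1.17, limma adjusted p = 0.00024). Acot9 rose in soleus (0.88, limma adjusted p = 0.0039), where Acot1 and Acot2 fell. Angptl2 fell in soleus (-0.73, limma adjusted p = 0.016) and tibialis anterior (-0.68, limma adjusted p = 0.022), and Angptl7 rose in tibialis anterior (1.61, limma adjusted p = 0.0012). These 4 paralogs kept their calls under median-ratio scaling.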

How the data were processed

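RNA of diaphragm, tibialis anterior and soleus was sequenced in 59 samples, and the authors deposited 1 table of TPM values, which per the study's methods came from the RNA-Seq tool of CLC Genomics Workbench on the mouse genome (mm10), with gene annotation not given in the sources used here. The labels and the methods name different library kits and instruments. TPM hold no depth, so the precision of single values is unknown. Columns were matched to groups by name, since their numbers could not be tied to labelled replicates. Numbers recur across the muscles, and over genes the deviations of same-numbered libraries from their group means correlated above 0.1 in 10 of 10 pairs of tibialis anterior and soleus, 10 of 10 of diaphragm and tibialis anterior and 7 of 10 of diaphragm and soleus, so a fit with the number as a block was added. The study drew its diaphragm results from fewer cachectic samples than are labelled here.

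Log2(TPM + 1) was fitted with limma 3.58.1 (lmFit, contrasts.fit, eBayes with trend, two-sided, R 4.3.3) from the deposited values, separately for the 39 diaphragm libraries, the 10 of tibialis anterior, the 10 of soleus and, across muscles, the 39 libraries without rFibcd1. Genes with at least 1 TPM in as many libraries as the smallest group were kept, and p-values were adjusted by Benjamini-Hochberg over all of them. The script was tested on simulated data. Alternatives were a pseudocount of 0.1, no filter, median-ratio scaling, Dunn's test, library state or a clock-gene index as a term, the block, high-state libraries only, and leaving out each library. Tables and alignments used pandas 2.3.3 and Biopython 1.88, and figures matplotlib 3.10.9. Coding sequences and positions are from the GENCODE annotation of GRCm38 and promoters from RefSeq, which matched 8 of the 10 genes. All 10 genes are named in every comparison. From other lists the highest and lowest called gene with a mean of at least 5 TPM is named in the mock diaphragm, tibialis anterior and soleus comparisons, and the PPAR, RXR and coactivator genes discussed were chosen from a list of 14. The genes and lists were chosen with earlier results of these data known. A few other genes that these rules would name are not reported here.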

Additional observations from a re-analysis of the deposited data

Results flagged for a closer look

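In 80 combinations of gene and group, 4 had a library that stood apart from the rest of its group by Dixon's test, which flags about 1 in 20 by chance. In cachectic rFibcd1 diaphragm the same library held 181 TPM of Acot1, 72.0 TPM of Acot2 and 545 TPM of Cpt1b, where the second-highest values were 13.2, 16.9 and 367 TPM. Without it the group means were 8.50 TPM for Acot1 and 13.2 TPM for Acot2. No call in the comparisons of rFibcd1 with mock depended on it, as none of the 10 genes was called with or without it. In non-cachectic soleus the lowest Plin5 value, 47.1 TPM, stood below the other 4, and the fall of Plin5 in cachectic soleus was called without it too.

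The melanoma difference was unequal between muscles, by a test of the difference itself without the block, for 6 genes. For tibialis anterior against soleus it was 2.25 on the log2 scale for Acot1, 1.07 for Acot2, 0.77 for Cd36 and 0.46 for Cpt1b. For diaphragm against soleus it was 1.92 for Acot1, 0.96 for Plin5 and 0.69 for Cd36, and for diaphragm against tibialis anterior 1.07 for Fabp3. In limb muscle the library state followed the tumor in all 20 libraries and in diaphragm it did not, and its part in these differences was not tested.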

How the results depend on the processing

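Of the single-gene values under all alternatives, 1492 kept their direction and side of the threshold, 78 were no longer called, 33 became called and 23 changed sign. Under median-ratio scaling, which moves the median gene from 0.20, 0.41, 0.44 and -0.47 (mock diaphragm, tibialis anterior, diaphragm against tibialis anterior, tibialis anterior against soleus) to about 0, Cpt1b turned to -0.21 in mock diaphragm and -0.46 in tibialis anterior and Angptl4 to -0.042 in soleus. The same scaling left 1 of 4 calls for tibialis anterior against soleus and gave 2 instead of 1 for diaphragm against tibialis anterior. It changed the share of genes higher and lower from 30.9% and 2.67% to 7.39% and 8.41% in mock diaphragm and from 56.4% and 3.78% to 18.4% and 21.9% in tibialis anterior. Without the filter 3 of 6 soleus calls and 2 of 4 for tibialis anterior against soleus were left, where more genes are adjusted for. Angptl4 in soleus was -0.056 with a pseudocount of 0.1, Pdk4 in mock diaphragm had a z of 0.70 by Dunn's test and a difference of 0.028 among high-state libraries, where none of the 10 genes was called in mock diaphragm, beside 5.69% of all genes, and Dunn's test called 0 for diaphragm against soleus levels. The cause was not tested.

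Leaving out 1 library at a time, the calls ran from 3 to 6 in soleus (3 without non-cachectic library 3), from 2 to 5 for tibialis anterior against soleus (2 without cachectic tibialis anterior library 2 or 3 or non-cachectic library 1 or 4), from 1 to 2 for diaphragm against tibialis anterior, and from 1 to 5 for diaphragm against soleus (5 without cachectic mock library 6 and 1 without cachectic soleus library 4 or non-cachectic soleus library 2, 3 or 5). Sign changes, all uncalled, were within -0.24 to 0.18 for Pdk4 and -0.0048 to 0.070 for Cpt1b in mock diaphragm, -0.0046 to 0.090 for Cpt1b in tibialis anterior, -0.27 to 0.45 for Angptl4 in soleus and -0.016 to 0.10 for Fabp3 in diaphragm against soleus levels. With the column number as a replicate block, added after the data were seen, 7 instead of 4 genes were called for tibialis anterior against soleus, 4 instead of 1 for diaphragm against tibialis anterior and 6 instead of 3 for diaphragm against soleus, with median-ratio scaling added 4, 3 and 2, and Fabp3 in diaphragm against soleus levels was -0.028, while no gene called without the block was lost with it. Groups within 1 muscle share no column number, so no block could be fitted there. TPM without counts do not show how far depth limits the scarce genes, Angptl4 and, in tibialis anterior, Acot1.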
